A study of Mus musculus with 3 samples.

Results

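The miR-29 family of mouse liver was followed in small RNA libraries made after delivery of miRNA decoys. Members were all reads assigned to the precursors Mir29a, Mir29b-1, Mir29b-2 and Mir29c, whatever their level, and they cover 7 mature strands of the 689 miRNA strands with a read in the series. The family held 544 of 380902 distinct inserts (156334 of 3681585 reads) in the TuD-miR-122 library, 445 of 218907 inserts (50535 of 2066892 reads) in the TuD-let-7 library and 525 of 274320 inserts (146385 of 3450317 reads) in the mock library. Livers were taken from mice of the inbred strain C57BL/6 at 4 weeks after they had been injected with scAAV9, an adeno-associated virus with a self-complementary genome that enters hepatocytes well. The vector encoded a Tough Decoy (TuD), a hairpin RNA that binds its target miRNA, against miR-122 in the first group and against let-7 in the second, while the mock vector of the third encoded no decoy. All 3 groups received the vector, and each is represented by 1 library. The promoter of the decoys and the number of animals behind a library are not given in the sources used. The question posed was whether decoys affect how stable and intact a miRNA is, and miR-29 is a target of neither decoy.

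Each miR-29 hairpin is cut into a duplex whose 3′ arm strand, the guide, is loaded into Argonaute, while the 5′ arm strand, the passenger, is mostly discarded. The guides recognise mRNAs through the seed, the bases next to their 5′ end, and they are best known for repressing collagens and other extracellular matrix genes. In liver, miR-29 falls in hepatic stellate cells when these become activated, and hepatocytes express it as well. The loading and decay of a miRNA leave marks at its 3′ end, as loss of bases (trimming) or addition of bases that the gene does not encode (tailing).

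The 4 genes form a pair of clusters. On chromosome 6 of GRCm38.p6, Mir29a (31062660 to 31062747) and Mir29b-1 (31063023 to 31063093) lie 275 nt apart on the minus strand. Mir29b-1 overlaps an exon of the long noncoding RNA Gm27019 by 2 nt, and no other annotated gene overlaps Mir29a. On chromosome 1, Mir29b-2 (195037040 to 195037120) and Mir29c (195037547 to 195037634) lie 426 nt apart on the plus strand, within an exon of the noncoding transcript A330023F24Rik. Both are also antisense to an untranslated part of the last exon of Cd46, which encodes a complement regulator. The guide of both miR-29b genes is identical, so its reads cannot be assigned to a gene.

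The guides are shown first because the family's reads differ by few bases. Sequences are from RefSeq for GRCm38.p6, written 5′ to 3′, with the seed (bases 2 to 8) in capitals:
miR-29a-3p (chr6:31062673-31062694, minus strand): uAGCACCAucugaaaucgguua
miR-29b-3p (chr6:31063025-31063047, minus strand, and chr1:195037091-195037113, plus strand): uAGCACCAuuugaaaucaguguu
miR-29c-3p (chr1:195037600-195037621, plus strand): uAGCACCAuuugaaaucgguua

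The seed AGCACCA is the same in all 3 guides. Counting of positions starts from 1 at the 5′ end, and T stands for U. miR-29c-3p differs from miR-29a-3p by C10T alone over 22 nt, so a base-call error there would move a read between them. miR-29b-3p and miR-29c-3p share their first 17 nt and part at A18G, G21T and T22A. Reads that matched both equally numbered 399 in TuD-miR-122, 167 in TuD-let-7 and 309 in mock, and they were left out of both members. The passenger strands, shown because their seeds differ from that of the guides and from each other, are:
miR-29a-5p: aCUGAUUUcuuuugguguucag
miR-29b-1-5p: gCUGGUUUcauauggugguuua
miR-29b-2-5p: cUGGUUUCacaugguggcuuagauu
miR-29c-5p: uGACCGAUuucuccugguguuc

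Across the libraries, 70.7% of reads in TuD-miR-122, 72.3% in TuD-let-7 and 77.0% in mock were assigned to miRNAs. Levels are given in RPM, reads per 1000000 miRNA reads once those of miR-122, let-7 and miR-98 genes are set aside. The reads so counted numbered 1406283, 469692 and 1327848 in the same order of libraries. A single read therefore stood for 0.711 RPM in TuD-miR-122, 2.13 RPM in TuD-let-7 and 0.753 RPM in mock. With 1 library a group, no difference has a replicate check and none was tested. All intervals are at 95%, cover counting error only, and treat every read as an independent molecule although the reads carry no molecular identifiers. Overlap of intervals does not show that libraries are alike. In whole liver, fewer cells of a type and less miRNA per cell cannot be told apart. Among 26 listed marker miRNAs, each with reads in every library, the 3 of skeletal muscle summed to 951 RPM in TuD-miR-122, 221 RPM in TuD-let-7 and 10105 RPM in mock, and the 3 of exocrine pancreas to 1122, 61.7 and 70.8 RPM. The 5 stellate and stromal markers summed to 25051, 24789 and 21524 RPM, of which miR-143-3p held 18269, 18678 and 14844 RPM; 3 of the 5 were above mock in TuD-miR-122 and 2 of the 5 in TuD-let-7. Endothelial markers summed to 29720, 22804 and 24639 RPM, immune markers to 13161, 11048 and 13932 RPM, and erythroid markers to 50117, 32100 and 35814 RPM. The defining miRNA of hepatocytes, miR-122-5p, stood on the same scale at 614411 RPM in TuD-miR-122, 2078830 RPM in TuD-let-7 and 768193 RPM in mock, its own reads being outside the total. The 4 other hepatocyte markers summed to 104393, 148201 and 125764 RPM, with 0 of the 4 above mock in TuD-miR-122 and 2 of the 4 in TuD-let-7. Among these 4, miR-802-5p had 594 RPM in TuD-miR-122, 209 RPM in TuD-let-7 and 1173 RPM in mock. What part such differences in tissue or cell content have in the miR-29 values was not tested.

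On this scale the guides as a sum differed little between libraries, while their proportions did not stay the same. The 3 guides together stood at 110841 RPM in TuD-miR-122 (110323 to 111361), 107021 RPM in TuD-let-7 (106138 to 107909) and 109786 RPM in mock (109255 to 110319). That is 11.1%, 10.7% and 10.98% of the reads counted. These intervals do not overlap, although those of TuD-miR-122 and mock nearly meet. The sum in TuD-miR-122 was 1.01 times mock (1.002 to 1.02), that in TuD-let-7 0.975 of mock (0.965 to 0.985), and that in TuD-miR-122 1.04 times TuD-let-7 (1.03 to 1.05). Scaled to all reads or to all miRNA reads instead, it was 0.576 or 0.614 for TuD-let-7 over mock and 1.74 or 1.78 for TuD-miR-122 over TuD-let-7, so the likeness of TuD-let-7 to the other libraries rests on the scaling. The comparisons with mock share the mock library.

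miR-29a-3p was the most abundant member in all 3 libraries. It had 51564 RPM in TuD-miR-122 (51199 to 51931), 47714 RPM in TuD-let-7 (47106 to 48328) and 43941 RPM in mock (43593 to 44291). It ranked 5th, 4th and 8th among all miRNA strands of those libraries. Its level was thus highest in TuD-miR-122 and lowest in mock, with intervals that do not overlap. The ratio was 1.17 for TuD-miR-122 over mock and 1.08 for TuD-miR-122 over TuD-let-7. It was 1.09 for TuD-let-7 over mock, but 0.641 scaled to all reads and 0.684 scaled to all miRNA reads, so this direction rests on the scaling. Scaling to all reads moved every ratio of TuD-let-7 over mock by -0.76 on the log2 scale.

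miR-29b-3p, encoded in both clusters, was ordered the other way. It had 28151 RPM in TuD-miR-122 (27878 to 28426), 35917 RPM in TuD-let-7 (35387 to 36453) and 39544 RPM in mock (39213 to 39877). Again no intervals overlap. TuD-miR-122 over mock gave 0.712 (0.703 to 0.721), the furthest from 1 of the 3 guides against mock, and 31 of the 224 miRNAs tested had a lower ratio. TuD-let-7 over mock gave 0.908 (0.893 to 0.924), and TuD-miR-122 over TuD-let-7 gave 0.784 (0.770 to 0.798), but 1.32 scaled to all reads and 1.35 scaled to all miRNA reads.

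miR-29c-3p, from the chromosome 1 cluster, followed neither order. It had 31126 RPM in TuD-miR-122 (30840 to 31414), 23390 RPM in TuD-let-7 (22959 to 23826) and 26301 RPM in mock (26030 to 26575). The TuD-miR-122 library was high and the TuD-let-7 library low, and the intervals are apart. TuD-miR-122 over mock gave 1.18 (1.17 to 1.20), and TuD-let-7 over mock 0.889 (0.870 to 0.909). TuD-miR-122 over TuD-let-7 gave 1.33 (1.30 to 1.36), but 2.24 scaled to all reads and 2.28 scaled to all miRNA reads. As a result, miR-29c-3p outranked miR-29b-3p in TuD-miR-122 (11th and 13th), but miR-29b-3p outranked miR-29c-3p in TuD-let-7 (6th and 12th) and in mock (9th and 13th).

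**Figure D1:**
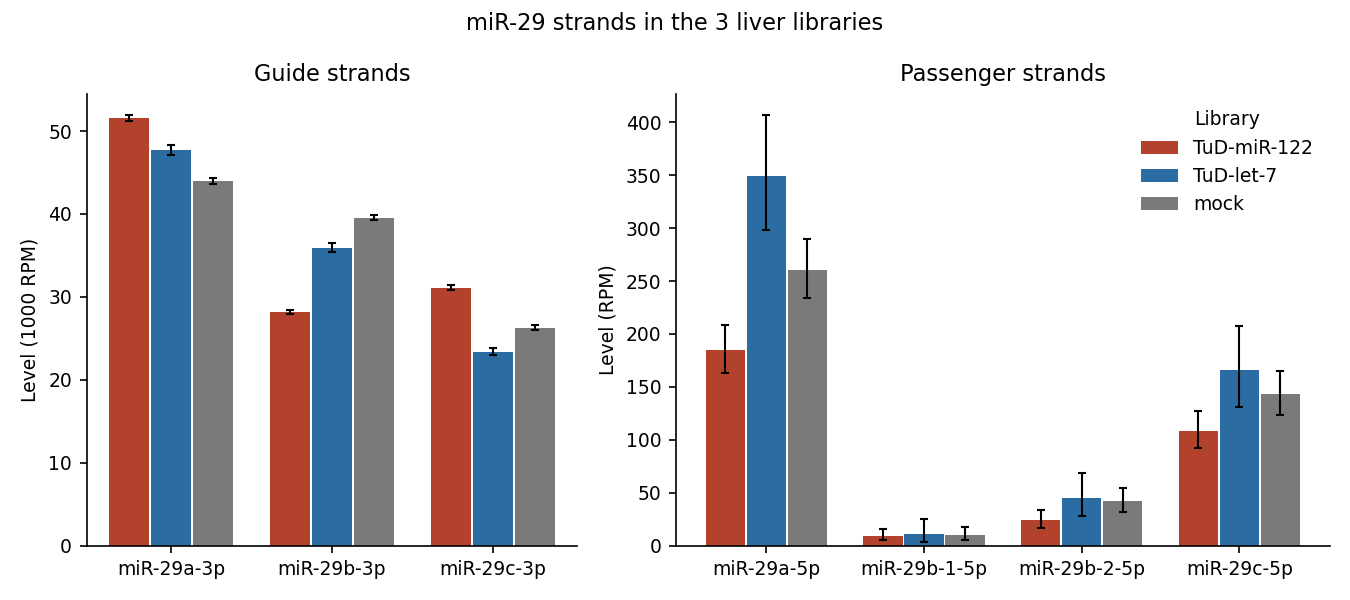
Levels of the miR-29 guide strands (left, in units of 1000 RPM) and passenger strands (right, RPM) in the TuD-miR-122, TuD-let-7 and mock libraries, 1 library each. Bars are RPM and lines are exact 95% counting intervals; miR-29b-3p is lowest in TuD-miR-122 (28151 RPM), where miR-29a-3p is highest (51564 RPM).

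None of these differences reached 2-fold in RPM. A miRNA was called when its ratio's interval lay wholly above 2 or below 0.5, given at least 100 reads over both libraries. By this rule 18.8% of 224 miRNAs were called in TuD-miR-122 over mock, 8.38% of 191 in TuD-let-7 over mock and 20.3% of 212 in TuD-miR-122 over TuD-let-7. Of the 7 miR-29 strands, 0 were called in any comparison, but miR-29b-1-5p and miR-29b-2-5p had under 100 reads in each pair of libraries and could not be called. The median ratio of all miRNAs tested was 0.995, 0.987 and 1.07 in those comparisons. The quartiles of the TuD-miR-122 ratios to mock were 0.812 and 1.29, so that miR-29a-3p and miR-29c-3p lay within it and miR-29b-3p below it. All 3 guides lay within the quartiles in TuD-miR-122 over TuD-let-7 (0.761 and 1.84) and in TuD-let-7 over mock (0.758 and 1.34).

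**Figure D2:**
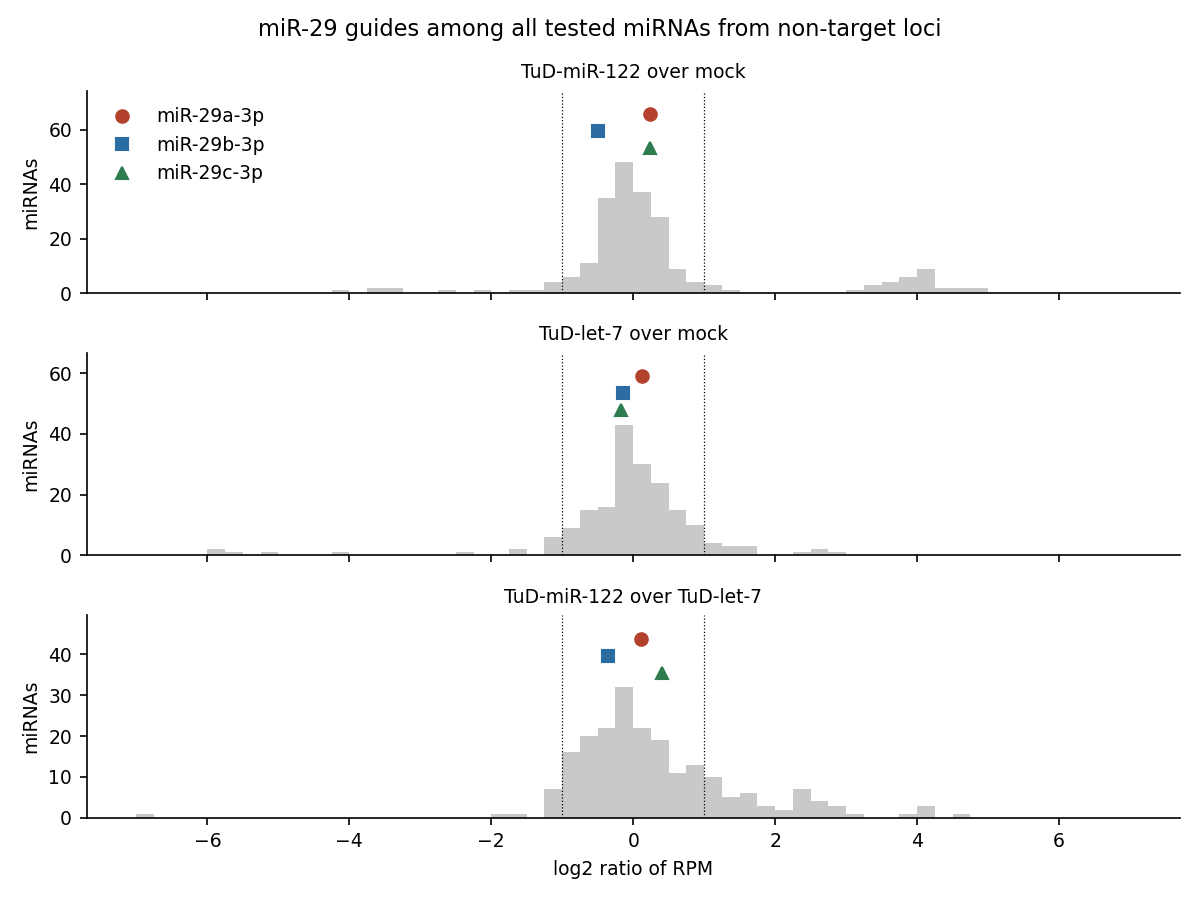
Histograms of the log2 ratio of RPM for all tested miRNAs from non-target genes in each comparison, with the 3 miR-29 guides marked above at their own ratio (the height of a symbol has no meaning). Dotted lines stand at 2-fold; every guide lies between them, and miR-29b-3p is furthest to the left in TuD-miR-122 over mock (-0.49).

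Proportions within a library do not depend on the scaling, and in TuD-miR-122 they separated miR-29b-3p from both cluster partners. In TuD-let-7 it was miR-29a-3p that stood apart from the other guides. For each read of miR-29a-3p there were 0.546 reads of miR-29b-3p in TuD-miR-122 (0.539 to 0.553), 0.753 in TuD-let-7 (0.738 to 0.768) and 0.900 in mock (0.889 to 0.911). TuD-miR-122 thus stood at 0.607 of mock (0.596 to 0.617) and TuD-let-7 at 0.836 of mock (0.817 to 0.856). For each read of miR-29c-3p there were 0.904 reads of miR-29b-3p in TuD-miR-122 (0.892 to 0.917), 1.54 in TuD-let-7 (1.50 to 1.57) and 1.50 in mock (1.48 to 1.52). Here TuD-miR-122 was alone in having fewer reads of miR-29b-3p than of miR-29c-3p, at 0.602 of mock (0.590 to 0.613), and TuD-let-7 and mock did not differ beyond counting error (1.02, 0.994 to 1.05). miR-29c-3p reads per miR-29a-3p read numbered 0.604 in TuD-miR-122, 0.490 in TuD-let-7 and 0.599 in mock. For this pair, which joins the clusters, TuD-miR-122 and mock did not differ beyond counting error (1.01, 0.991 to 1.03), while TuD-let-7 was at 0.819 of mock (0.798 to 0.841). miR-29b-3p made up 25.4% of the guide reads in TuD-miR-122, 33.6% in TuD-let-7 and 36.0% in mock. The intervals of reads per read are exact, and those of a library against mock are normal approximations on the log scale. Both cover the counting of reads alone.

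**Figure D3:**
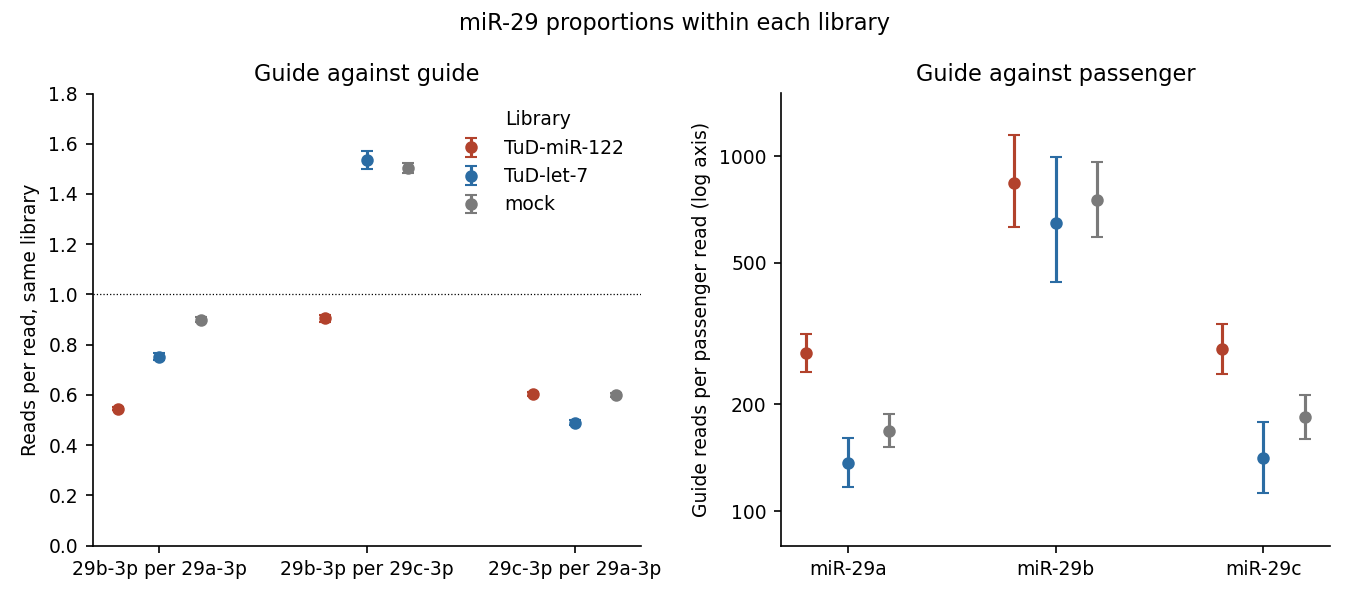
Left, reads of 1 miR-29 guide per read of another in the same library; right, guide reads per passenger read on a log axis. Points are the TuD-miR-122, TuD-let-7 and mock libraries with 95% counting intervals, and the dotted line marks equal reads; miR-29b-3p per miR-29c-3p is 0.904 in TuD-miR-122, 1.54 in TuD-let-7 and 1.50 in mock.

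The passenger strands were rare. They summed to 460 reads in TuD-miR-122, 268 in TuD-let-7 and 606 in mock, or 327 RPM (298 to 358), 571 RPM (504 to 643) and 456 RPM (421 to 494). The sum was lowest in TuD-miR-122, at 0.717 of mock (0.634 to 0.810), and highest in TuD-let-7, at 1.25 times mock (1.08 to 1.45), but 0.738 scaled to all reads and 0.787 scaled to all miRNA reads. miR-29a-5p, the most abundant passenger, had 260 reads (185 RPM) in TuD-miR-122, 164 reads (349 RPM) in TuD-let-7 and 346 reads (261 RPM) in mock. Its ratio was 0.710 for TuD-miR-122 over mock (0.602 to 0.836), 1.34 for TuD-let-7 over mock (1.11 to 1.62) and 0.530 for TuD-miR-122 over TuD-let-7 (0.434 to 0.648). Scaled to all reads, these were 0.704, 0.791 and 0.890, so that miR-29a-5p too lay below mock in TuD-let-7 on that scale. miR-29c-5p had 153 reads (109 RPM) in TuD-miR-122, 78 reads (166 RPM) in TuD-let-7 and 190 reads (143 RPM) in mock. Its ratio to mock was 0.760 in TuD-miR-122 (0.610 to 0.946), but 0.822 scaled to all miRNA reads (0.660 to 1.02), an interval that includes 1. In TuD-let-7 the ratio was 1.16, with an interval that includes 1 (0.880 to 1.52), and 0.685 scaled to all reads. Only reads at the annotated start count here. Of miR-29c-5p reads starting within 3 nt of it, they were 153 of 219 in TuD-miR-122, 78 of 96 in TuD-let-7 and 190 of 235 in mock. The ratio of miR-29c-5p in TuD-miR-122 over mock thus rests in part on this start rule. By this counting, the guides of Mir29a and Mir29c stood above 1 in TuD-miR-122 over mock and their passengers below it.

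Reads of the miR-29b passengers distinguish the genes, unlike those of the guide. miR-29b-1-5p had 13 reads in TuD-miR-122, 5 in TuD-let-7 and 14 in mock, and miR-29b-2-5p had 34, 21 and 56. The chromosome 6 gene thus gave 27.7% of miR-29b passenger reads in TuD-miR-122 (exact Clopper-Pearson interval 15.6 to 42.6), 19.2% in TuD-let-7 (6.55 to 39.4) and 14 of 70 reads in mock (11.4 to 31.3%). No difference between libraries in this split was detectable at such counts. The base after the annotated 3′ end of miR-29b-3p also differs between the genes (Mir29b-1 to Mir29b-2: C24T). Among reads that ran through base 23 without mismatch, the next base was T in 1045 of 26675 in TuD-miR-122, 344 of 10787 in TuD-let-7 and 1293 of 37584 in mock. It was C in 5, 3 and 7 reads, and A, encoded by neither gene, in 671, 386 and 1034. The base of Mir29b-1 was thus nearly missing from these longer reads, but an added U cannot be told apart from the T of Mir29b-2.

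Guide reads per passenger read followed the same order for Mir29a and Mir29c. For miR-29a there were 279 in TuD-miR-122 (247 to 316), 137 in TuD-let-7 (117 to 160) and 169 in mock (152 to 188). For miR-29c there were 286 in TuD-miR-122 (244 to 338), 141 in TuD-let-7 (113 to 178) and 184 in mock (159 to 213). In both, TuD-miR-122 lay above the other libraries by this counting, which leaves out miR-29c-5p reads with other starts. TuD-let-7 was the lowest in both, with intervals that overlap those of mock. miR-29b, with both genes joined, had 842 guide reads per passenger read in TuD-miR-122 (633 to 1147), 649 in TuD-let-7 (443 to 994) and 750 in mock (594 to 962), with intervals that all overlap. The family as a whole had 339 in TuD-miR-122 (309 to 372), 188 in TuD-let-7 (166 to 212) and 241 in mock (222 to 261). These intervals do not overlap, but the family value also depends on the proportions of its members. No exact read matched a hairpin outside the mature arms in any library.

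The members differed in length more than the libraries did. Shown with the most frequent untailed reads, which make the 3′ ends visible, the forms were:
miR-29a-3p, 21 nt: tagcaccatctgaaatcggtt
miR-29a-3p, 22 nt: tagcaccatctgaaatcggtta
miR-29b-3p, 23 nt: tagcaccatttgaaatcagtgtt
miR-29b-3p, 22 nt: tagcaccatttgaaatcagtgt
miR-29c-3p, 21 nt: tagcaccatttgaaatcggtt
miR-29c-3p, 22 nt: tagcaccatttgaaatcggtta

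The 21-nt form, which lacks the last annotated base, led in miR-29a-3p, holding 46.5% of reads in TuD-miR-122, 43.6% in TuD-let-7 and 49.0% in mock. Its 22-nt form held 32.4%, 27.6% and 30.4%. miR-29c-3p, alike from base 11 on, was alike in length too, with 48.4%, 42.6% and 48.3% of reads at 21 nt and 30.4%, 27.9% and 30.2% at 22 nt. miR-29b-3p instead ended at its annotated 23 nt in 62.9% of reads in TuD-miR-122, 59.5% in TuD-let-7 and 67.0% in mock. Another 27.1%, 21.9% and 23.1% ended at 22 nt. The leading length of each member was the same in every library. The shares in TuD-let-7 are lowered by reads with a T in place of a G, given with the tails, which count in the total but not as untailed. Without such reads, the 21-nt form of miR-29a-3p held 46.7% in TuD-miR-122, 49.9% in TuD-let-7 and 49.2% in mock, that of miR-29c-3p 48.6%, 48.7% and 48.5%, and the 23-nt form of miR-29b-3p 63.2%, 66.1% and 67.3%. The passenger miR-29a-5p was mostly 23 nt long, 1 nt beyond its RefSeq entry, in 72.7% of 260 reads, 67.1% of 164 and 77.2% of 346.

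**Figure D4:**
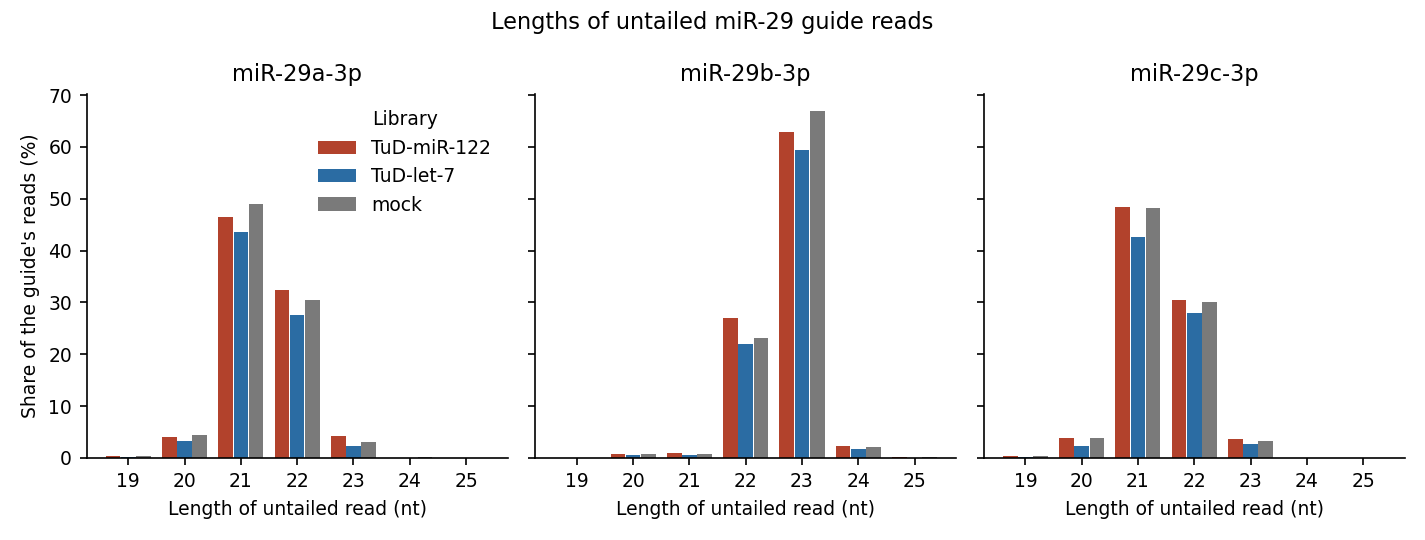
Share of each guide's reads (%) that were untailed and of the given length (nt) in the TuD-miR-122, TuD-let-7 and mock libraries, 1 library each. miR-29a-3p and miR-29c-3p peak at 21 nt and miR-29b-3p at 23 nt in each library, for example at 46.5% for miR-29a-3p in TuD-miR-122.

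Starts were nearly fixed. Of reads starting within 3 nt of the annotated 5′ end, 96.1% of miR-29a-3p, 97.3% of miR-29b-3p and 98.4% of miR-29c-3p in TuD-miR-122 began at that end. A start 1 nt upstream, which moves the seed, was found in 2.33% of miR-29a-3p in TuD-miR-122, 2.46% in TuD-let-7 and 2.99% in mock. In miR-29b-3p it was found in 0.978%, 0.798% and 0.981%, and in miR-29c-3p in 0.135%, 0.126% and 0.147%. The order of members, with miR-29a-3p highest and miR-29c-3p lowest, was the same in every library. The passenger miR-29c-5p started 2 nt downstream in 49 of 219 reads in TuD-miR-122 (22.4%, 17.0 to 28.5), 11 of 96 in TuD-let-7 (11.5%, 5.86 to 19.6) and 23 of 235 in mock (9.79%, 6.31 to 14.3). The share in TuD-miR-122 lay above mock with intervals that do not overlap, and overlapped that in TuD-let-7.

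The 3′ ends of the guides in TuD-miR-122 were close to those in mock. A tail is here any end of 1 to 5 nt that does not match the gene, base-call errors included. Tailed reads made up 11.1% of guide reads in TuD-miR-122 (10.98% to 11.3%) and 10.7% in mock (10.6 to 10.9). The difference of 0.430 percentage points for the sum is not seen in the members. miR-29c-3p was less tailed in TuD-miR-122, at 13.4% against 14.3% in mock. The tailed share was 12.58% in TuD-miR-122 and 12.60% in mock for miR-29a-3p, and 6.04% and 6.21% for miR-29b-3p, with intervals that overlap for each. miR-29b-3p, the least tailed member by this rule, made up less of the sum in TuD-miR-122 than in mock. A U added where the gene also encodes U, as at base 24 of Mir29b-2, counts as untailed. Tailed shares of different members are therefore not measured alike. Over the 68 other miRNAs that had 1000 reads or more in each library of the pair, the tailed share differed by a median of -1.08 points (quartiles -2.59 and 0.852).

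Adenosine was the commonest tail of each guide in TuD-miR-122 and mock. A single A stood on 4.97% of miR-29a-3p reads in TuD-miR-122 and 6.23% in mock, as well as 7.02% of miR-29c-3p reads in TuD-miR-122 and 8.25% in mock. For miR-29b-3p it stood on 3.62% in TuD-miR-122 and 3.77% in mock, with intervals that overlap. Tails made of A alone were less frequent in TuD-miR-122 over the guides together, at 5.76% of all guide reads against 6.44% in mock. The second tail of miR-29a-3p and miR-29c-3p was a single T, which stands for uridine. It ended 3.20% of miR-29a-3p reads in TuD-miR-122 and 1.95% in mock, as well as 2.27% of miR-29c-3p reads in TuD-miR-122 and 1.50% in mock. For these 2 guides, uridine tails that count by the rule were more frequent, and adenosine tails less frequent, in TuD-miR-122 than in mock. Tails of A alone differed by -1.35 points for miR-29a-3p and -1.38 points for miR-29c-3p. Over the 68 other miRNAs with 1000 reads or more in both libraries, the median was -0.221 points (quartiles -1.33 and 0.122). Uridine tails were not compared with those of other miRNAs. The genes of miR-29a-3p and miR-29c-3p encode A at base 22 and U at base 23. An A added to the 21-nt form, or a U added to the 22-nt form, therefore counts as untailed. Whether all added adenosine or uridine differed between the libraries cannot be told from these tails. On miR-29b-3p the second tail was a single C, on 0.318% of reads in TuD-miR-122 and 0.322% in mock.

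Trimmed reads, with a matching part under 21 nt, made up 5.93% of guide reads in TuD-miR-122 (5.81 to 6.04) and 5.49% in mock (5.37 to 5.61). By member they made up 7.67% against 8.01% in mock for miR-29a-3p, 1.85% against 1.75% for miR-29b-3p and 6.71% against 6.91% for miR-29c-3p. The intervals overlap for each guide, which does not exclude a difference beyond counting error. The longer miR-29b-3p was thus the least trimmed by this limit in both libraries, and it differed from the other members by far more than the libraries did. Reads matching only 16 or 17 nt fit miR-29b-3p and miR-29c-3p equally, so they count for miR-29a-3p alone. Its tailed reads of these matching lengths held 0.576% and 0.432% of its reads in TuD-miR-122. Its trimmed and tailed shares are raised by them against those of the other 2 guides.

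The TuD-let-7 library stood apart in the same measures. Tailed reads made up 20.9% of guide reads there (20.5 to 21.2), 10.2 points above mock, and trimmed reads 16.2% (15.8 to 16.5), 10.7 points above mock. All 3 guides were alike in this, with tailed shares of 23.1% in TuD-let-7 against 12.6% in mock for miR-29a-3p, 15.7% against 6.21% for miR-29b-3p and 24.3% against 14.3% for miR-29c-3p. Over the 43 other miRNAs with 1000 reads or more in each library of the pair, the tailed share differed by a median of 2.40 points (quartiles -0.177 and 7.14), and 5 had a larger one than each of the guides. The commonest tails on the guides in TuD-let-7 included TTT and TTTA, on 4.18% and 2.88% of reads.

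Of the tailed guide reads, 5915 of 10491 in TuD-let-7 had T in place of G as the first base that did not match, against 624 of 15611 in mock; in TuD-miR-122 they were 665 of 17362. Reads that follow the guide again after this base are called tailed and trimmed by the rule, although they need not be shortened. The leading such form of each guide is shown with that base (G19T) in capitals:
miR-29a-3p with G19T: tagcaccatctgaaatcgTtt
miR-29b-3p with G19T: tagcaccatttgaaatcaTtgtt
miR-29c-3p with G19T: tagcaccatttgaaatcgTtt

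The first of these had 1336 reads in TuD-let-7, 5.96% of the reads assigned to miR-29a-3p, against 64 reads or 0.110% in mock. Among reads of all lengths that run at least 2 nt past the base, G19T was in 12.5% of miR-29a-3p, 7.50% of miR-29b-3p and 12.6% of miR-29c-3p in TuD-let-7, against 0.267%, 0.190% and 0.374% in mock. In TuD-miR-122 it was in 0.172%, 0.135% and 0.169%, so TuD-let-7 alone was high. G12T was in 7.65%, 7.52% and 7.66% of the guides in TuD-let-7 and in 0.363%, 0.356% and 0.439% in mock, and A2C was in 4.77%, 4.79% and 4.80% in TuD-let-7. Reads with G12T or A2C do not match 16 nt without mismatch and were not counted in the levels.

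Changes of G to T at these positions were also found in other miRNAs. Of 19 other miRNAs with G at position 19 and enough reads, all 19 had more G19T in TuD-let-7 than in mock, with medians of 10.6% and 0.274%. The 6 others with G at position 12 had medians of 4.84% and 0.495%. Other positions differed too. Among 20 others with G at position 10, G10T had medians of 8.82% in TuD-let-7 and 0.809% in mock. TuD-miR-122 was the high library at position 14, where the guides have A. Over 20 others, G14T had medians of 3.30% in TuD-miR-122, 0.403% in TuD-let-7 and 0.183% in mock. With all reads left out whose first unmatched base was T in place of G, tailed guide reads made up 10.8% in TuD-miR-122, 10.3% in TuD-let-7 and 10.3% in mock, and trimmed ones 5.55%, 4.98% and 5.10%. TuD-let-7 and mock then differed by -0.0074 points in tailed share (-0.330 to 0.319) and by -0.124 points in trimmed share (-0.355 to 0.111), within counting error. Tails of A alone were then on 5.79% of guide reads in TuD-miR-122, 5.77% in TuD-let-7 (5.56 to 5.995) and 6.46% in mock (6.34 to 6.59); over all guide reads they were on 5.09% in TuD-let-7 and 6.44% in mock. Whether the substitutions arose in the RNA, in the library or in sequencing was not tested.

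**Figure D5:**
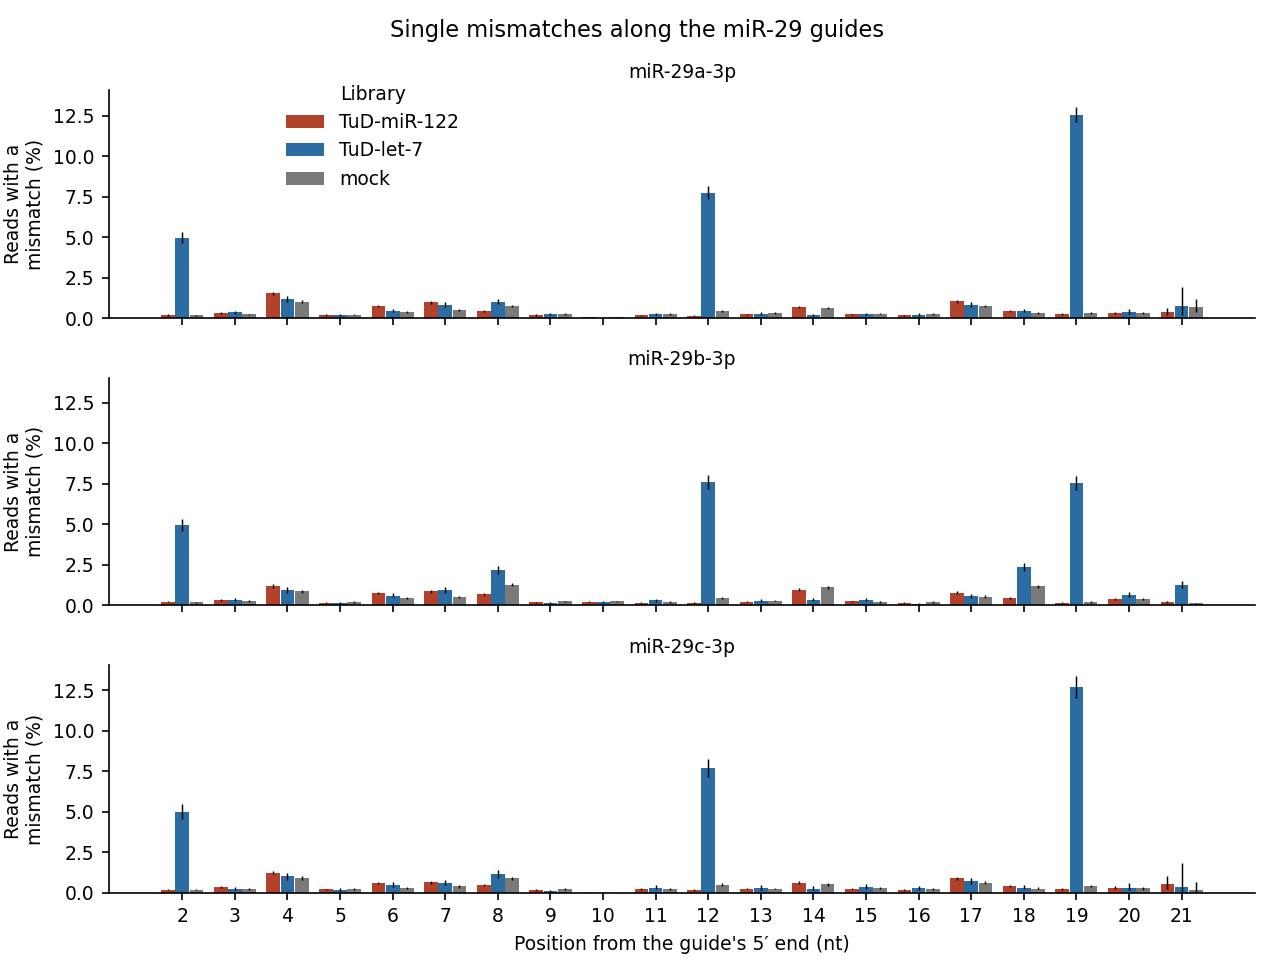
Share of reads (%) with a single mismatch at each position from the 5′ end of miR-29a-3p, miR-29b-3p and miR-29c-3p in the TuD-miR-122, TuD-let-7 and mock libraries, 1 library each, with exact 95% counting intervals. Reads that fit another member as well or better are not counted. Few changes therefore show at position 10 of miR-29a-3p and miR-29c-3p (36 and 3 reads in TuD-miR-122). TuD-let-7 stands out at positions 2, 12 and 19 in all 3 guides.

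The miRNAs whose levels over the 3 libraries lay nearest to the guide sum were sought among 43 miRNAs with at least 1000 reads in each library, by the Euclidean distance between log2 levels centred on their mean. They were miR-146a-5p (distance 0.041), miR-152-3p (0.076), miR-7a-5p (0.096) and miR-15a-5p (0.128). The nearest, miR-146a-5p, had 3597 RPM in TuD-miR-122, 3613 RPM in TuD-let-7 and 3613 RPM in mock. With 3 libraries, such likeness says only that these miRNAs also differed little.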

How the data were processed

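The deposited files give each distinct insert of a library with its raw read count, not normalised, per the file contents; inserts ran from 15 to 30 nt. Per the labels' protocols, RNAs of 18 to 30 nt were gel-purified from liver total RNA. No source used here names the adapter removal, filters, aligner or genome build. Members, lists and rules were chosen with earlier results of these data known.

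Arms came from RefSeq mature strands (1635, GRCm38.p6); 95 further arms came from GENCODE (release 21 for mouse) precursors, with the 5′ end set to the commonest start in the reads. A read was assigned when it began at that end and matched at least 16 nt without mismatch; up to 5 further nt were its tail. Reads fitting several strands equally (0.169% to 0.218% of miRNA reads) entered none. RPM left out of the total the reads of miR-122, let-7 and miR-98 genes, because losing an abundant target raises the share of every other miRNA. That reason does not cover miR-122-5p in TuD-let-7, where it is no target of the decoy. It held 976412 of 1493349 miRNA reads there and 1020044 of 2657525 in mock, so leaving it out also raises TuD-let-7 levels relative to mock. Ratios have exact conditional-binomial intervals and shares exact Clopper-Pearson intervals (95%). For share differences the interval combines both shares. The text names all miR-29 strands, tails and lengths from among their 3 commonest, the 4 nearest miRNAs, and up to 2 values per marker list. The counting code was tested on simulated data. Other scalings, matching rules and tail definitions were tried. Python 3.11.15, NumPy 2.4.6, SciPy 1.17.1.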

Additional observations from a re-analysis of the deposited data

How the results depend on the processing

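The guide sum of TuD-miR-122 over mock was 1.002 scaled to all reads, 1.09 scaled to all miRNA reads and 1.04 with median-of-ratios size factors. For TuD-let-7 over mock it was 0.576, 0.614 and 0.939, and 0.957 with starts within 2 nt; for TuD-miR-122 over TuD-let-7 it was 1.74, 1.78, 1.11 and 1.05 under the same settings. Reads of miR-122 and let-7 enter the total when scaling to all reads or to all miRNA reads. miR-29a-3p in TuD-let-7 over mock turned to 0.641 scaled to all reads and 0.684 to all miRNA reads, and miR-29b-3p in TuD-miR-122 over TuD-let-7 to 1.32 and 1.35. miR-29c-3p in TuD-miR-122 over TuD-let-7 passed 2-fold under these scalings, at 2.24 and 2.28. Under the same 2 scalings, TuD-let-7 over mock turned to 0.738 and 0.787 for the passenger sum, 0.791 and 0.843 for miR-29a-5p and 0.685 and 0.731 for miR-29c-5p, and TuD-miR-122 over TuD-let-7 turned to 1.101 and 1.12 for miR-29c-5p; for the passenger sum it moved to 0.964 and 0.984. Changes in reads of a guide per read of another kept their side of 1 in every comparison under the 4 other counting rules; miR-29b-3p per miR-29a-3p in TuD-miR-122 over mock ran from 0.599 to 0.610.

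The tailed share of TuD-miR-122 minus mock was 1.07 points with single-A tails left out and -0.673 with only tails of A counted. For TuD-let-7 minus mock it was 3.85 with 1 mismatch allowed, 0.268 with tails of at most 2 nt, 11.9 with single-A tails left out, -1.34 with only tails of A and -0.0074 without reads with T in place of G. The trimmed share of TuD-miR-122 minus mock was 0.271 with matches of at least 18 nt and 0.0905 with trimmed meaning under 20 nt. For TuD-let-7 minus mock it was 3.75 with 1 mismatch, 11.1 under 20 nt and -0.124 without T in place of G. The settings that count only tails of A or leave out T in place of G, and those on guide-to-guide ratios, passengers and the number of miRNAs past 2-fold, were chosen after seeing the data. miRNAs past 2-fold in TuD-let-7 over mock numbered 16, but 40 scaled to all reads and 37 to all miRNA reads; in TuD-miR-122 over TuD-let-7 they numbered 43, and 67 and 69 so scaled. No paired analysis was possible because each group has 1 library. Depth limits the passengers most: 3 reads stand for 2.13 RPM in TuD-miR-122, 6.39 RPM in TuD-let-7 and 2.26 RPM in mock.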
